A study of Mus musculus with 12 samples.

Results

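The genes described here encode subunits of the receptors for glutamate, GABA, glycine and acetylcholine. They were taken by gene symbol from the array annotation (Gria, Grin, Grik and Grm genes with a number, Gabr, Gabbr, Glra, Glrb and Chrn genes). The symbol rule itself uses no measured value, but it was chosen with earlier results of these data known. The rule gave 57 genes, measured by 97 probe sets, of 17097 genes in all, and a gene's values are those of the brightest of its probe sets, averaged over the 12 arrays. Other genes of these families are not analysed here.

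RNA came from mouse embryos of mixed background, with 3 arrays in each of 4 groups. The YAP experiment used forebrain with midbrain at E11.5. The overexpression group carried TetO-YAP1, a doxycycline-dependent allele of YAP1-S127A, together with Nes-rtTA, whose transactivator is driven by the Nestin promoter in neural progenitors. The control group was Nes-rtTA alone, and doxycycline was fed to the dam at 200 mg/kg of food from E7.5. The Nf2 experiment used dorsal telencephalon at E13.5, with Nf2F/F;Emx1-Cre knockouts and Nf2F/+;Emx1-Cre controls. All embryos of the Nf2 experiment therefore carried the Cre, and its controls had already lost 1 copy of Nf2 where the Cre acts.

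Fast excitation in the mature brain runs mainly through the AMPA, kainate and NMDA types of glutamate-gated channel, and fast inhibition through GABA-A and glycine receptors. Metabotropic glutamate receptors and GABA-B receptors signal through G proteins, and nicotinic receptors are cation channels opened by acetylcholine. Many of these subunits appear as neurons differentiate, before most synapses form, and the subunits that make up a channel set its conductance, calcium permeability and kinetics.

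The manipulated genes were not called. Yap1 ranged from 10.99 to 11.07 on the log2 scale in YAP controls and from 11.23 to 11.35 with overexpression (change 0.27, limma adjusted p = 0.0551). Nf2 ranged from 8.41 to 8.66 in Nf2 controls and from 8.06 to 8.27 in knockouts (change -0.38, limma adjusted p = 0.246). Where their probes lie against the introduced or deleted part was not analysed here, so these values do not settle the labels. The lowest correlation between arrays of a group, across genes, was r = 0.994. With 3 arrays a group, the number of arrays limits the precision. At E13.5, 5 of 5 measured markers of dorsal telencephalon lay above background, and 7 of 11 midbrain and diencephalon markers lay near it. At E11.5, 8 of those 11 lay above it. The labels do not say whether the arrays of a group came from separate embryos, so the spread behind the p-values may be technical.

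The comparison of YAP overexpression with its control asks which receptor genes change when YAP is raised in the early brain. Of the 57 genes, 5 fell (Gria2, Gria4, Grik2, Gabrb2 and Chrna3), 1 rose (Gria3) and 51 were not called. A gene was called at an adjusted p under 0.05 in a limma model of all 17097 genes. Over all genes tested, 6.31% were called, 3.64% lower and 2.67% higher, and among the receptor genes the shares were 8.77% and 1.75%. The median log2 change was -0.09 over the receptor genes and -0.01 over all genes. The share of falling members was thus above that of all genes, on only 5 genes, and the share of rising members was not. At an unadjusted p under 0.05, 12 were lower and 8 higher, against 11% and 8.65% of all genes (19.6% in either direction). The 3 arrays of each group did not overlap in 19 of the 57 genes, 33.3% of them, and in 21.3% of all genes.

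The number of calls depended on single arrays. It was 3 without control replicate 1, all of them among the 6 genes named above. It was 3 without control replicate 3, of which 2 were among those 6. When only the 6 arrays of the YAP experiment were fitted it was 2, Gabrb2 and Grik3, and 5 of the 6 calls were lost. Gabrb2 was called in all 16 alternative analyses. Grik2 was called in 14 of them, Gria4 in 11, Gria3 in 10, and Gria2 and Chrna3 in 9 each. The 5 falls and the rise of Gria3 kept their direction in all 16.

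**Figure D1:**
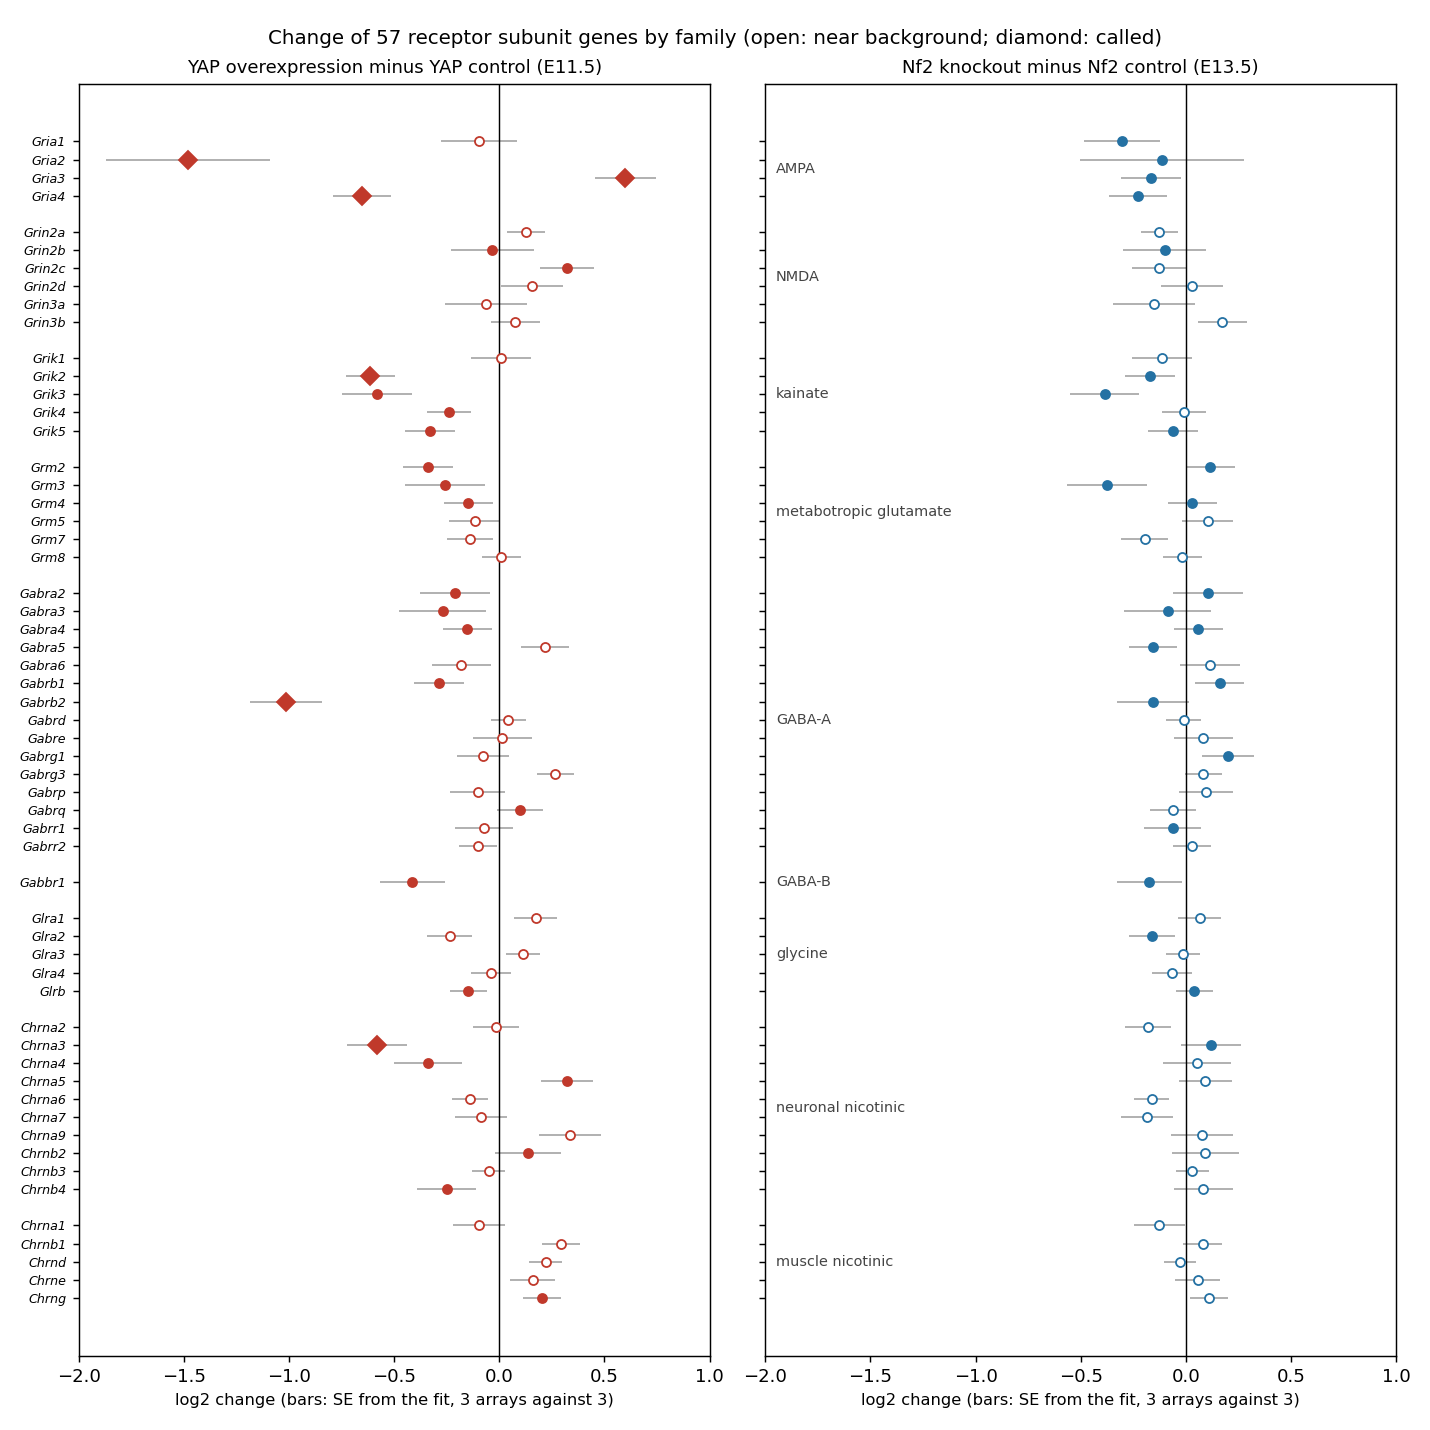
Log2 change of each of the 57 receptor subunit genes, by family, for YAP overexpression (left) and Nf2 knockout (right), with the standard error from the fit as bars. Diamonds mark the 6 called genes, all in the YAP experiment, and open symbols mark genes near background.

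The promoters of 2 of the falling genes are shown because the data bear on them as genes that fell with YAP overexpression, and because each holds a match to a motif that was searched for. The sequences are the 250 bases before the annotated start, from RefSeq (GRCm38.p6). They were scanned on both strands for GGAATG, the core bound by the TEAD partners of YAP, for CAGCTG and CAGATG, E-boxes of the kind bound by proneural factors, and for the RE1 element bound by the repressor REST. The motifs were chosen after the values were known, and none overlapped another in these sequences. Capitals mark the match. Gria2 lies on the minus strand (chr3:80802836-80803085), and the RE1 letters read on the opposite strand, 170 to 154 bases before its start. Gabrb2 lies on the plus strand (chr11:42420524-42420773, the window of 1 of its 3 annotated starts), and its TEAD core, also on the opposite strand, lies 156 to 151 bases before the start.
Gria2: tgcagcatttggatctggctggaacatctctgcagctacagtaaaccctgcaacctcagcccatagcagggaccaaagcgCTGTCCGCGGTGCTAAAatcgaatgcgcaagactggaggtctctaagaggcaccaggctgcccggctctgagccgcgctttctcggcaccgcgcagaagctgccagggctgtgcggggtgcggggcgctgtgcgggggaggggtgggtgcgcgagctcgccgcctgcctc
Gabrb2: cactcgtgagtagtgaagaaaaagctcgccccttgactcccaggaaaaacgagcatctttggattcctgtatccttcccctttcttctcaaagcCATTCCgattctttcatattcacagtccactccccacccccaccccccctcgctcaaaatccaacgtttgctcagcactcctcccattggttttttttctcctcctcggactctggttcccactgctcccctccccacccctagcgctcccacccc

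Of the 57 genes, 43 had a promoter in the table, with 51 windows among them. GGAATG was found in 13.7% of these windows and in 12.6% of all 32851, CAGCTG in 13.7% and 13%, and CAGATG in 5.88% and 14.4%. The RE1 letters were found in 5 of the 32851 windows, and Gria2 held 1 of those. The windows of Gria4, Grik2 and Chrna3, and the other windows of Gabrb2, held none of these letters. A match is a description of the letters in this window and was not tested as a binding site.

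Among the AMPA receptor genes, Gria2 encodes the subunit that makes the channel nearly impermeable to calcium once its transcript has been edited. Its log2 level was 8.49, 8.26 and 8.80 in YAP controls and 7.18, 8.08 and 5.85 with overexpression. The groups did not overlap, overexpression replicate 2 lay close to the controls, and the spread was wider with overexpression (SD 1.12, n = 3) than in controls (SD 0.27, n = 3). The fall was 2.79-fold (log2 -1.48, SE 0.39, limma adjusted p = 0.043). It was called without overexpression replicate 2 and without replicate 3 but not without any 1 of the other 4 arrays, where the adjusted p ran up to 0.146. The size also rested on single arrays, at -2.0 without overexpression replicate 2 and -0.89 without replicate 3. With the mean of its probe sets the change was -0.91.

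The 3 probe sets of Gria2 fell by different amounts. The others differed by -0.90 (SE 0.18) and -0.36 (SE 0.21), and in a fit of all single-gene probe sets the former was called (limma adjusted p = 0.0124) and the latter was not (adjusted p = 0.434). On the probe set that differed by -0.90, controls read 5.92, 5.64 and 6.37 and overexpression arrays 4.95, 5.44 and 4.84. Again no overexpression array reached the lowest control, and replicate 2 was the nearest. On the one that differed by -0.36, controls read 7.33, 6.64 and 7.25 and overexpression arrays 6.83, 6.71 and 6.61. There the groups overlapped, and replicate 1 was the highest overexpression array.

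Gria4, whose subunit is prominent early in development, read 7.66, 7.31 and 7.54 in controls and 6.84, 7.13 and 6.58 with overexpression. The groups did not overlap, and the fall was 1.57-fold (log2 -0.65, SE 0.14, limma adjusted p = 0.0153). The call was lost without control replicate 1 (0.063), control replicate 3 (0.0596) or overexpression replicate 3 (0.0534). With the mean of its 3 probe sets the change was -0.26 (adjusted p = 0.113), and its other probe sets lay near background.

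Gria3, the X-linked member of the family, moved the other way. It read 5.84, 5.61 and 5.58 in controls and 6.23, 6.64 and 5.96 with overexpression, so that each overexpression array was above each control. The rise was 1.52-fold (log2 0.60, SE 0.14, limma adjusted p = 0.0282). Its second probe set differed by 0.38 (SE 0.18, adjusted p = 0.303), and the call was lost without either of control replicates 2 and 3 and without either of overexpression replicates 1 and 2 (adjusted p from 0.0514 to 0.106). Gria1, whose level lay near background in this experiment, read 4.48, 4.46 and 4.80 against 4.34, 4.72 and 4.39, a change of -0.10 (SE 0.18). The AMPA genes thus went in both directions with YAP overexpression.

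**Figure D2:**
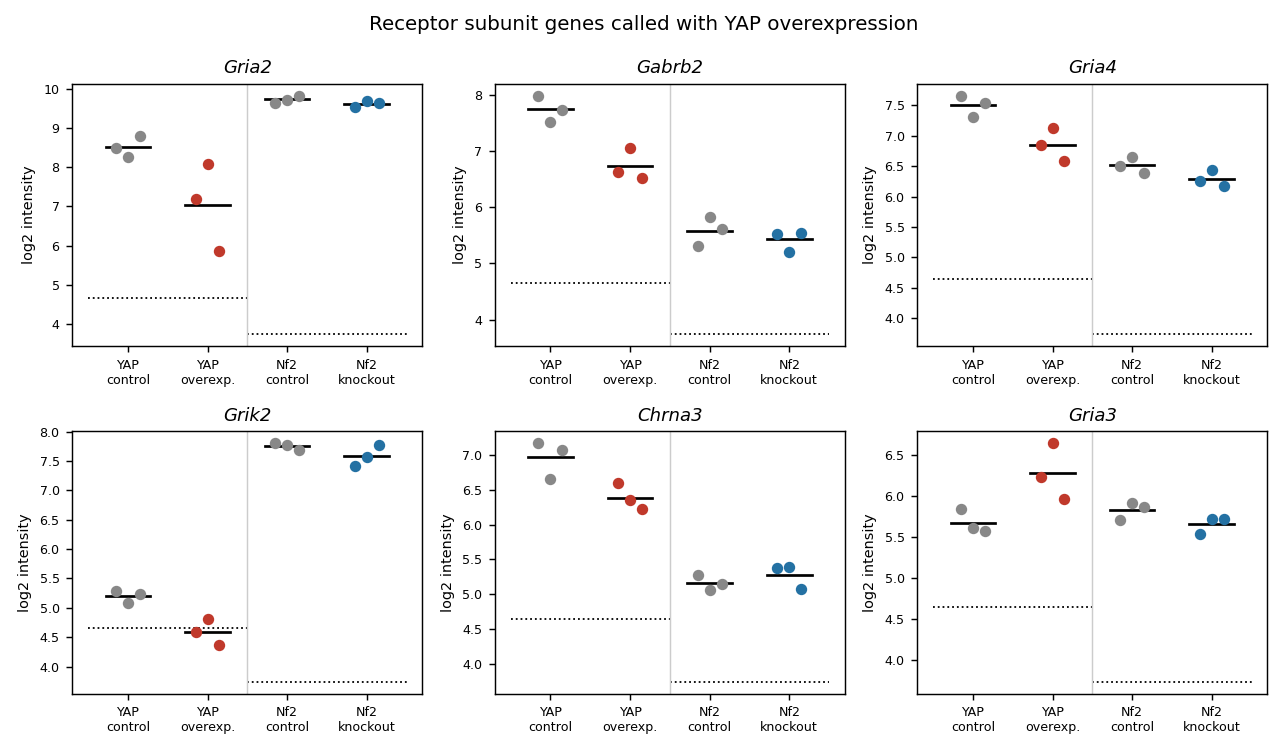
Log2 intensity of the 6 called genes on each of the 12 arrays, with group means as bars and the background level of each experiment as a dotted line. On the left of each panel the YAP groups do not overlap, and on the right the Nf2 groups do.

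Of the 5 kainate receptor genes 1 fell and 4 were not called, and 4 of the 5 were lower at an unadjusted limma p under 0.05. Grik2, which encodes a main pore-forming subunit, read 5.29, 5.08 and 5.23 in controls and 4.59, 4.81 and 4.36 with overexpression. The groups did not overlap, and the fall was 1.53-fold (log2 -0.61, SE 0.12, limma adjusted p = 0.0096). The overexpression mean of 4.59 lay just under the background level of 4.65. Its other probe set differed by -0.55 (SE 0.19, adjusted p = 0.135), and there the overexpression array of replicate 2 lay within the controls.

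Grik3, another pore-forming kainate subunit gene, read 4.88, 4.81 and 4.93 against 4.24, 4.37 and 4.27. Every overexpression array lay under every control, by a change of -0.58 (SE 0.17) that was not called (limma adjusted p = 0.0611). It was called when only the 6 arrays of the experiment were fitted (limma adjusted p = 0.0159). It was also called when only genes above background were tested (limma adjusted p = 0.0487). However, Grik3 passed that filter only through its control mean of 4.87. The filter keeps a gene by the higher of its group means, so the filtered call is not separate support. The overexpression mean of Grik3, 4.29, lay under the background level of 4.65. Its other probe set, near background, differed by 0.14 (SE 0.11). Grik5 (-0.33, SE 0.12) and Grik4 (-0.24, SE 0.11), which encode the auxiliary-type kainate subunits that need the others to form a channel, were not called (limma adjusted p = 0.135 and 0.23), and their groups did not overlap either. Grik1 lay near background (0.01).

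None of the 6 measured NMDA receptor genes was called by limma, and 1 had an unadjusted p under 0.05. Grin2b, the regulatory subunit gene typical of the embryonic brain, read 4.45, 5.12 and 5.26 in controls and 4.95, 5.16 and 4.62 with overexpression. These groups overlapped fully, with a change of -0.03 (95% interval -0.46 to 0.40). Grin2c differed by 0.32 (SE 0.13, adjusted p = 0.186), at levels near the edge of the background. Grin2a, Grin2d, Grin3a and Grin3b lay near background, with changes from -0.06 to 0.15.

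Of the 6 metabotropic glutamate receptor genes none was called by limma, and 1 had an unadjusted p under 0.05. This was Grm2, a receptor that lowers cyclic AMP, which read 6.22, 5.77 and 5.93 against 5.68, 5.58 and 5.64 (change -0.34, SE 0.12, adjusted p = 0.12). Its groups did not overlap. Grm3 (-0.26, SE 0.19) and Grm4 (-0.15, SE 0.12) overlapped between groups, and Grm5, Grm7 and Grm8 lay near background.

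Among the 15 measured GABA-A genes 1 fell, none rose and 14 were not called. Gabrb2, a beta subunit gene, read 7.99, 7.52 and 7.74 in controls and 6.62, 7.06 and 6.53 with overexpression. The groups were well apart, and the fall was 2.02-fold (log2 -1.01, SE 0.17, limma adjusted p = 0.00475). Of its 5 probe sets, 4 lay above background and differed by between -1.01 and -0.51, 3 of them called in the fit of all single-gene probe sets, while the fifth lay near background (0.03). With the mean of all 5 the change was -0.63. With any 1 array left out, Gabrb2 stayed called, at an adjusted p of up to 0.0234.

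Other GABA-A genes above background in this experiment were Gabra2 (-0.21), Gabra3 (-0.27), Gabra4 (-0.15), Gabrb1 (-0.29) and Gabrq (0.10), none of them called. Gabrb1, another beta subunit gene, read 4.61, 4.63 and 4.84 against 4.21, 4.68 and 4.33, so its groups overlapped through replicate 2 (SE 0.12, limma adjusted p = 0.203). Without that array it was called (-0.42, adjusted p = 0.0307). The remaining 9 lay near background, with changes from -0.18 to 0.27. Gabbr1, which encodes the GABA-binding subunit of the GABA-B receptor, read 9.41, 9.53 and 9.74 in controls and 8.93, 9.53 and 8.98 with overexpression. Replicate 2 again lay within the controls, and the change of -0.41 (SE 0.16) was not called (adjusted p = 0.155), though without that array it was (-0.61, adjusted p = 0.0155). Neither Gabrb1 nor Gabbr1 was called with any other single array left out. Another probe set of Gabbr1 above background went the other way, by 0.26 (SE 0.15).

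None of the 5 glycine receptor genes was called by limma, and 1, Glra2, had an unadjusted p under 0.05. Glrb, which encodes the beta subunit that anchors the receptor to gephyrin, read 5.17, 5.21 and 5.32 against 5.01, 5.14 and 5.11. Its groups did not overlap, with a change of -0.15 (SE 0.09, adjusted p = 0.414). The alpha subunit gene Glra2 lay near background in this experiment (-0.24, SE 0.11, adjusted p = 0.252), as did Glra1, Glra3 and Glra4.

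Of the 10 neuronal nicotinic genes 1 fell, none rose and 9 were not called. Chrna3, an alpha subunit gene known from autonomic ganglia and the habenula, read 7.17, 6.66 and 7.08 in controls and 6.60, 6.35 and 6.22 with overexpression. The groups were separated by a narrow gap, and the fall was 1.49-fold (log2 -0.58, SE 0.14, limma adjusted p = 0.0314). The call was lost without control replicate 1 or 3 or overexpression replicate 2 or 3 (adjusted p from 0.0695 to 0.117). Its second probe set, which was brighter in this experiment, differed by -0.35 and was not called (adjusted p = 0.217 in the fit of all single-gene probe sets), and the third lay near background. With the mean of its probe sets the change was -0.34 (limma adjusted p = 0.047).

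Chrna4, a main alpha subunit gene of the brain, differed by -0.34 (SE 0.16, limma adjusted p = 0.278), with arrays at 5.47, 5.11 and 5.78 against 5.19, 5.35 and 4.80. Chrna5 was higher on each overexpression array (0.32, SE 0.12, adjusted p = 0.163), at a level close to background, and so was Chrna9 (0.34, SE 0.15, adjusted p = 0.235), which lay near it. The other probe sets of Chrna9, also near background, differed by -0.11 and 0.02. No marker of neural crest and peripheral ganglia was called among 7 measured (3 had an unadjusted p under 0.05, 1 of them higher). Of the 7, 3 lay near background. Their mean level ran from 5.68 to 5.88 in controls and from 5.54 to 5.69 with overexpression. That mean includes Isl1 (-0.97, SE 0.42), which is also on the list for ventral telencephalon and GABAergic neurons. The part of the ganglia list in the values of Chrna3 was not tested.

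The 5 muscle nicotinic genes encode the receptor of the neuromuscular junction, and none was called by limma. Of these, 3 were higher at an unadjusted p under 0.05. Chrnb1 (0.29, SE 0.09, adjusted p = 0.0891), Chrnd (0.22, SE 0.08, adjusted p = 0.123) and Chrng (0.20, SE 0.09, adjusted p = 0.235) did not overlap between groups, and all but Chrng lay near background. Chrng itself, at 4.70, 4.59 and 4.54 against 4.80, 4.92 and 4.72, lay at its edge. The other probe sets of Chrng, near background, differed by -0.03 and -0.01. Of 13 skeletal muscle markers, 8 lay near background, and 1 of the 13 rose, the troponin gene Tnnt1 (1.04, SE 0.22, adjusted p = 0.0145). The myosin light chain gene Mylpf differed by -0.28 (SE 0.10, adjusted p = 0.127), 4 of the 13 were negative, and the median of the list was 0.05. The mean level of the muscle list ran from 4.55 to 4.65 in controls and from 4.66 to 4.70 with overexpression. That mean includes Tnnt1, and the next largest rise in the list was only 0.15 (Ckm, SE 0.11). The part of the muscle list in the receptor values was not tested.

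**Figure D3:**
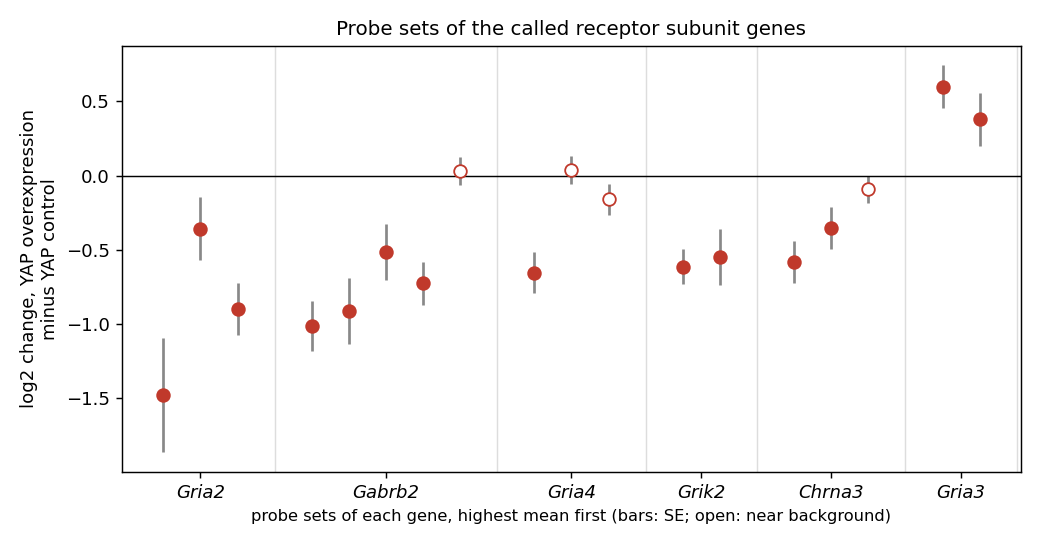
Log2 change with YAP overexpression for every probe set of the 6 called genes, ordered by mean level within a gene, with standard errors as bars. Probe sets above background share the direction of their gene, and the open ones, near background, lie between -0.16 and 0.04.

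Near background means that both group means of an experiment lay under the 95th percentile of 85 olfactory, vomeronasal, taste and trace amine receptor genes, which are mostly silent outside sensory tissue. That level was 4.65 for the YAP arrays and 3.74 for the Nf2 arrays. By this measure 31 of the 57 receptor genes in the former and 34 in the latter lay near background, where 31.3% and 32.1% of all genes did. A change of such a gene is close to what a probe set reads with little or no transcript. Receptor genes thus lay near background more often than genes in general.

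The 26 genes near background in both experiments included 4 of 6 NMDA genes, 3 of 5 glycine receptor genes, 3 of 6 metabotropic glutamate receptor genes, 6 of 15 GABA-A genes, 5 of 10 neuronal nicotinic and 4 of 5 muscle nicotinic genes. Of the kainate genes Grik1 was among them, and no AMPA or GABA-B gene was. In full they were Grin2a, Grin2d, Grin3a, Grin3b, Glra1, Glra3, Glra4, Grm5, Grm7, Grm8, Gabra6, Gabrd, Gabre, Gabrg3, Gabrp, Gabrr2, Chrna2, Chrna6, Chrna7, Chrna9, Chrnb3, Chrna1, Chrnb1, Chrnd, Chrne and Grik1. Each was placed by the probe set that stood for it, and another probe set of Grin3a lay above background in the YAP experiment.

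A further 5 genes, Gria1, Gabra5, Gabrg1, Gabrr1 and Glra2, lay near background in forebrain and midbrain at E11.5 but not in dorsal telencephalon at E13.5. Glra2, which encodes the alpha subunit of embryonic glycine receptors, was such a gene, at 3.94, 4.03 and 4.17 in YAP controls and 6.39, 6.55 and 6.71 in Nf2 controls. The reverse held for 8 genes, Chrna4, Chrna5, Chrnb2, Chrnb4, Chrng, Gabrq, Grik4 and Grin2c. Tissue, age and normalization all differed between the experiments, so only the position against each experiment's own background is given.

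**Figure D4:**
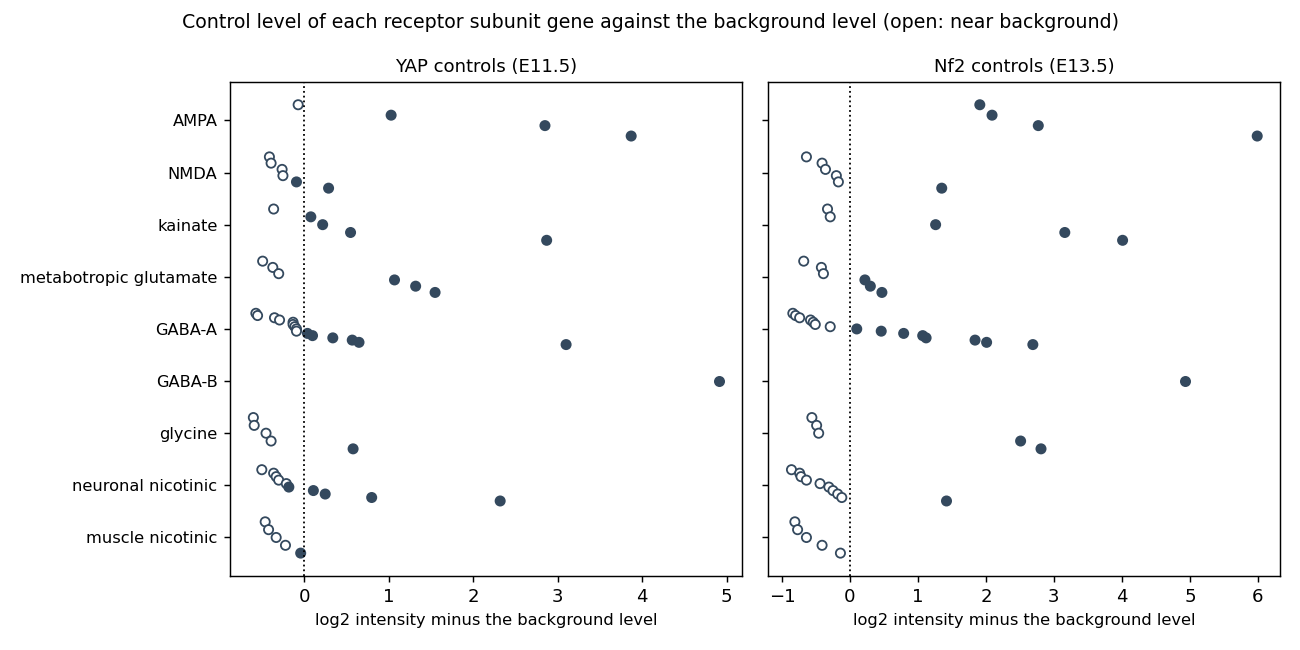
Mean log2 level of each receptor subunit gene in the controls of each experiment, as a distance from that experiment's background level, by family. Open symbols are genes whose group means both lie under the level, 31 in the YAP and 34 in the Nf2 experiment, and distances of different genes are not on a common scale.

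Postmitotic neuron markers were lower on the same arrays. With YAP overexpression 7 of the 13 measured fell and 6 were not called, and the median change was -0.65. Their mean log2 level was 9.80, 9.70 and 10.04 in controls and 9.22, 9.59 and 9.09 with overexpression. Replicate 2 was the overexpression array nearest to the controls for these markers, as it was for Gria2, Gria4, Gabrb2 and Grik2. For Chrna3 replicate 1 was the nearest, and for Gria3 replicate 2 was the farthest. Of the 11 genes marking ventral telencephalon or GABAergic neurons, 9 fell, and their mean level ran from 6.88 to 7.49 in controls and from 5.73 to 6.08 with overexpression. Intermediate progenitor markers fell in 8 of 8 (median -0.89), and their level ran from 8.84 to 9.02 in controls and from 8.02 to 8.23 with overexpression. Of 5 dorsal telencephalon markers 3 fell, among them Tbr1 (-1.49), and of 13 radial glia markers 5 fell and 2 rose. The part of any of these lists in the receptor values was not tested, and in whole tissue fewer neurons and less RNA per neuron cannot be told apart.

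**Figure D5:**
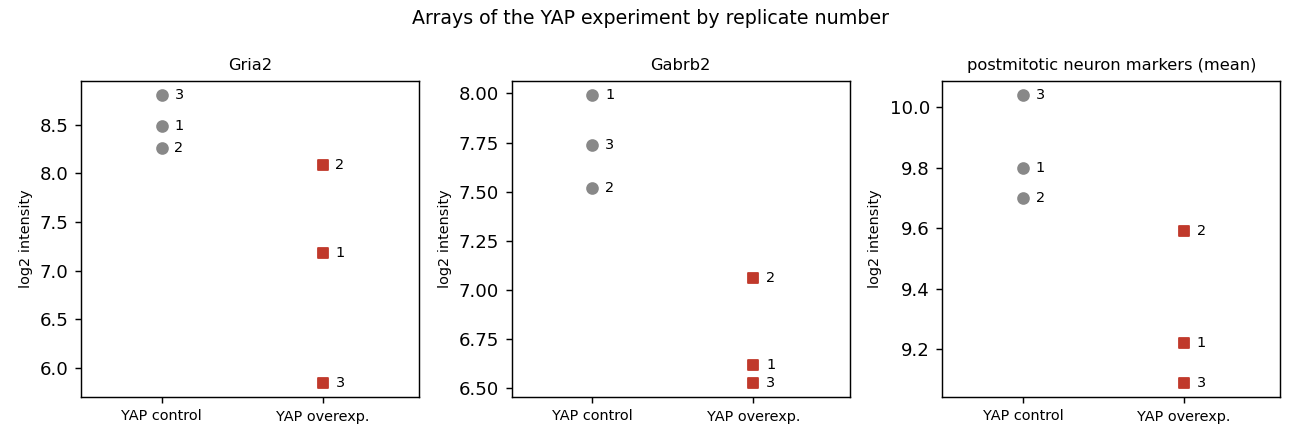
Log2 level of Gria2, of Gabrb2 and of the mean of 13 postmitotic neuron markers on the 6 arrays of the YAP experiment, with replicate numbers beside the points. In each panel overexpression replicate 3 is the lowest, replicate 2 the highest overexpression array, and all 3 lie under the controls.

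Genes that work with these receptors were read from fixed lists. Of 23 auxiliary subunit genes, 1 fell and none rose, with a median of -0.04. The falling gene was Cnih2, a cornichon that associates with AMPA receptors (-0.63, SE 0.15, limma adjusted p = 0.0257). No gene of 22 for postsynaptic scaffolds and receptor trafficking was called, with 2 higher and 5 lower at an unadjusted p under 0.05 and a median of -0.11. Of 16 genes for the synthesis and transport of the transmitters, 5 fell and none rose.

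These 5 were Slc17a6, a vesicular glutamate transporter (-1.02, SE 0.15), Slc32a1, the vesicular transporter of GABA and glycine (-1.16, SE 0.22), Gad1 and Gad2, which make GABA (-1.83, SE 0.19, and -0.75, SE 0.17), and Abat, which degrades it (-0.71, SE 0.13). Their limma adjusted p ran from 0.000161 to 0.0218. Gad1 and Gad2 are also among the falling genes of the ventral and GABAergic list, so those counts share genes. Neither of 2 chloride transporter genes was called, nor any of 4 related receptor genes outside the rule, with none at an unadjusted p under 0.05. The falls thus included genes of glutamate and of GABA transmission on the sending as on the receiving side.

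Several receptor genes are neighbours in the genome, and by RefSeq's GRCm38.p6 gene order, 24 of the 57 stood in 10 groups with at most 2 other protein-coding genes between members. The 3 called genes among them had neighbours that were not called. Gria2 fell by 1.48 while the adjacent Glrb differed by -0.15. Chrna3 fell by 0.58, and the genes on either side of it, Chrna5 and Chrnb4, differed by 0.32 and -0.25. Gabrb2 fell by 1.01 next to Gabra6, which lay near background (-0.18). In the group of Gabrg1, Gabra2, Gabra4 and Gabrb1 the changes ran from -0.29 to -0.08, and none was called. The differences between neighbours were not tested.

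The comparison of Nf2 knockouts with their controls asks whether loss of the second copy of Nf2 alters the same genes in dorsal telencephalon. Limma called none of the 57 genes, where it called 0.252% of all genes (0.205% higher and 0.0468% lower). At an unadjusted p under 0.05, 1 was lower and none higher, against 3.09% and 3.15% of all genes (6.24% in either direction). The median change was -0.01, against 0.00 over all genes, and the changes ran from -0.39 to 0.20. Knockout arrays lay wholly under the controls in 4 genes, Grm3, Chrna2, Chrna6 and Chrna7, of which all but Grm3 lay near background, and wholly above them in none. Over all genes these shares were 6.09% and 6.6%.

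For the genes called with YAP overexpression, the Nf2 experiment gave small changes. Gria2 read 9.65, 9.71 and 9.83 in Nf2 controls and 9.54, 9.68 and 9.63 in knockouts, a change of -0.11 with a 95% interval from -0.96 to 0.73. The fit uses 1 spread for all 12 arrays, and that of Gria2 includes the widely spread YAP overexpression arrays. Gabrb2 read 5.31, 5.82 and 5.62 against 5.53, 5.21 and 5.54, with a change of -0.16 and an interval from -0.53 to 0.22. Gria4 differed by -0.23 (interval -0.52 to 0.07), Grik2 by -0.17 (-0.43 to 0.09), Gria3 by -0.17 (-0.48 to 0.15) and Chrna3 by 0.12 (-0.19 to 0.43). Each of these intervals includes 0. They come from the fit without pairs. Within same-numbered pairs every difference of the 4 AMPA genes was negative, with -0.24, -0.22 and -0.22 for Gria4, -0.17, -0.19 and -0.14 for Gria3, -0.11, -0.03 and -0.20 for Gria2 and -0.61, -0.18 and -0.12 for Gria1. Outside that family every pair was also negative for Gabra5, Gabrq, Gabbr1, Grin2c, Glra2, Grik3, Grm3, Grm7, Chrna2, Chrna6 and Chrna7. For Gabra4, Gabrb1 and Gabrg1 every pair was positive. The share of all genes with pairs of 1 sign was not counted. These signs, those of the AMPA genes included, are therefore not read as a result about the receptor genes. With the replicate block none of the 4 AMPA genes was called (limma adjusted p from 0.793 to 0.981).

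Grik3 was the 1 gene under that unadjusted threshold in the Nf2 experiment. It read 4.77, 5.16 and 5.06 in controls and 4.14, 4.77 and 4.92 in knockouts, a change of -0.39 (SE 0.17) that was not called (limma adjusted p = 0.752). The groups overlapped, and within same-numbered pairs the differences were -0.63, -0.39 and -0.14. Without knockout replicate 1 the change was -0.15, and without knockout replicate 3 it was -0.54. Grm3, at 4.14, 4.34 and 4.16 against 4.07, 3.78 and 3.66, differed by -0.38 (SE 0.19, adjusted p = 0.847). Gria1 differed by -0.30 (SE 0.18), Gabrg1 by 0.20 (SE 0.13), Gabrb1 by 0.16 (SE 0.12), Gabbr1 by -0.17 (SE 0.16), Glra2 by -0.16 (SE 0.11), Grin2b by -0.10 (SE 0.20) and Glrb by 0.04 (SE 0.09), none of them called.

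All 4 AMPA genes and all 5 kainate genes had a negative change in the Nf2 experiment, from -0.30 to -0.11 and from -0.39 to -0.01, without a call in either family. Of the kainate genes, Grik1 and Grik4 lay near background here. Changes were negative in 31 of the 57 receptor genes and in 8706 of all 17097 genes. They were also negative in all 13 neuron markers and in all 11 ventral and GABAergic markers, 4 of which lay near background here. The same held for all 7 endothelial, all 5 erythroid and all 5 dorsal telencephalon markers, with medians of -0.25, -0.24 and -0.17. All 6 microglia and macrophage markers had a positive change. Negative changes were thus not particular to neuronal lists. Of the 15 GABA-A genes, 9 had a positive and 6 a negative change. The neuron marker list was not called in any of its 13 genes here (none had an unadjusted p under 0.05), with a median of -0.15. Its mean level ran from 8.62 to 8.86 in controls and from 8.49 to 8.67 in knockouts. No gene of the auxiliary, scaffold and transmitter lists was called by limma, with 4, 2 and 1 lower and none higher at an unadjusted p under 0.05.

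The difference between the effect of YAP overexpression and that of Nf2 knockout was tested in the same fit. It was called for none of the 57 genes by limma, where 0.281% of all genes were called (0.17% higher and 0.111% lower). At an unadjusted p under 0.05, 7 were lower and 4 higher, against 5.66% and 4.42% of all genes (10.1% in either direction). The YAP effect minus the Nf2 effect was -1.37 for Gria2 (95% interval -2.56 to -0.17, adjusted p = 0.418), -0.86 for Gabrb2 (-1.38 to -0.33, adjusted p = 0.211), -0.70 for Chrna3 (-1.14 to -0.26, adjusted p = 0.221) and 0.77 for Gria3 (0.32 to 1.21, adjusted p = 0.183). After adjustment the data thus do not show that any receptor gene responded differently in the 2 experiments, which also differ in tissue and age.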

How the data were processed

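RNA of 12 embryonic mouse brain samples was measured on Affymetrix 3' arrays. The deposited values are log2 intensities per probe set. Tools given without roles, per the submitters' processing notes, are Partek 6.5, Affymetrix Expression Console 1.1 and RMA. Array medians (5.03 to 5.10 in the YAP and 4.30 to 4.42 in the Nf2 experiment) differed between the experiments, so levels were not compared between them.

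Of 45037 probe sets, 28898 had a single gene symbol in the platform table, and 28689 of these were matched to a current symbol by Entrez ID. The probe set of highest mean stood for each gene. A limma 3.58.1 model (R 4.3.3) of 4 group means was fitted to all 17097 genes, with 8 residual and 4.096 prior degrees of freedom. P-values are two-sided, with Benjamini-Hochberg adjustment over all genes, and calls were made under 0.05. Standard errors and 95% intervals of single genes come from this fit. The code was tested on simulated data. No filter on low values was applied.

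The members and lists were chosen with earlier results of these data known. Genes given with full statistics are those called in any contrast and, in each family, the 2 above background with the largest change in each experiment. Cell type lists printed are those bearing on a result. Residuals of same-numbered arrays correlated at 0.271, 0.212 and 0.207 in the Nf2 experiment, which points to pairs, and the block is given under the alternatives. Alternatives were single arrays left out, each experiment fitted alone, the block, other scalings, probe set choices, a background filter and variance models.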

Additional observations from a re-analysis of the deposited data

How the results depend on the processing

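In the YAP experiment the number of called receptor genes was 6, and 2 when only its 6 arrays were fitted (Gabrb2 and Grik3). With 1 array left out it ran from 3 to 7. Under the other alternatives it ran from 4 to 7. In the Nf2 experiment and for the difference of the effects it was 0 under every alternative run. With the replicate block it was 6 in the YAP experiment, of which 5 were shared (Gria2 was lost at an adjusted p of 0.094 and Grik3 gained), 0 in the Nf2 experiment and 0 for the difference. Residuals of same-numbered YAP arrays correlated at 0.0971, -0.195 and -0.204, so those numbers were not taken as pairs. Of 602 values of the 19 named genes under 22 settings, 27 lost a call, 6 gained one and no called change reversed in sign. Another 12 values, called in neither fit, differed in sign from the main fit or rounded to 0. The number near background was 31 and 34, and between 30 and 42 and between 33 and 38 under other levels. Signal close to background limits what can be said of those genes.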

Other observations

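Probe sets of a gene did not always share a sign, also where both lay above background. For Gabbr1 the brightest probe set differed by -0.41 with YAP overexpression and another by 0.26 (limma adjusted p = 0.18 and 0.437 in the fit of all single-gene probe sets). For Gabra2 the changes were -0.21 and 0.18, and for Chrna4 they were -0.34 and 0.06, none of them called. Which transcripts of these genes each probe set detects was not analysed here.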
